A study of Mus musculus with 6 samples.

Results

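The genes described here are 8 regulators of odorant receptor (OR) transcription, Lhx2, Ldb1, Ebf1, Ebf2, Ebf3, Ebf4, Emx2 and Bptf. They were chosen by name from what is known of OR choice and not from their values, though earlier results of these data were known at the time. All transcripts carrying the symbol of a gene were summed, which gave 8 of the 24661 genes in the files. All 8 were among the 22152 genes tested, which were those that held a count of at least 1 in any of the 6 mice. RNA-Seq was performed on the whole olfactory mucosa of 3 wild-type mice and 3 mice lacking both Rtp1 and Rtp2 (RTP1,2DKO), all C57BL/6 and at postnatal day 21, to ask how loss of these chaperones of OR trafficking changes gene expression. The mutant allele, made in hybrid ES cells and kept by backcrossing to C57BL/6, was constitutive and had a loxP site in place of the Rtp1 coding region and a puromycin resistance cassette in place of that of Rtp2. The methods give littermates matched for sex, with 2 males and 1 female.

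An olfactory sensory neuron (OSN) transcribes a single OR allele out of the whole repertoire. In the accepted account, the LIM homeodomain protein LHX2 and the EBF factors bind side by side in intergenic OR enhancers and in many OR promoters, and the adaptor LDB1 is recruited through LHX2 and bridges enhancers into a hub that contacts the chosen OR. EMX2 is a further homeodomain factor that can bind OR promoters, and BPTF is the large subunit of the NURF chromatin remodeler, which is needed for OR expression and OSN maturation.

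The genotype was visible in the targeted genes. Rtp1 held 13543 to 25301 normalized counts in wild-type and 85.5 to 109 in RTP1,2DKO mice, and Rtp2 held 7157 to 9511 and 26.2 to 58.0. Their log2 fold changes (RTP1,2DKO minus wild-type throughout) were -7.70 and -7.55, each with an adjusted p of 7.19e-09 in edgeR's quasi-likelihood test. Both lie on chromosome 16, which holds 0 of the 8 regulators. Libraries totalled 31125410 to 41636996 estimated counts, and a normalized count is an estimated count divided by the size factor of the library. The smallest estimated count of any regulator in any mouse was 1185. The share of a library held by 1 secretory gene, Bpifb9b, varied from 4.81% to 13.7%.

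None of the 8 regulators passed an adjusted p of 0.05. The count was 0 of 8 in edgeR's quasi-likelihood test, where 3.61% of all genes tested were called (0.46% higher and 3.15% lower in RTP1,2DKO), and it was also 0 of 8 in DESeq2. At an unadjusted p under 0.05 there were 2 of 8 in either tool, beside 11.8% of all genes in edgeR. The median log2 fold change of the 8 genes was 0, with a range from -0.34 to 0.30, beside 0.016 over all genes tested. In whole mucosa, fewer cells of a type and less RNA per cell cannot be told apart, and this holds for every value below.

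**Figure D1:**
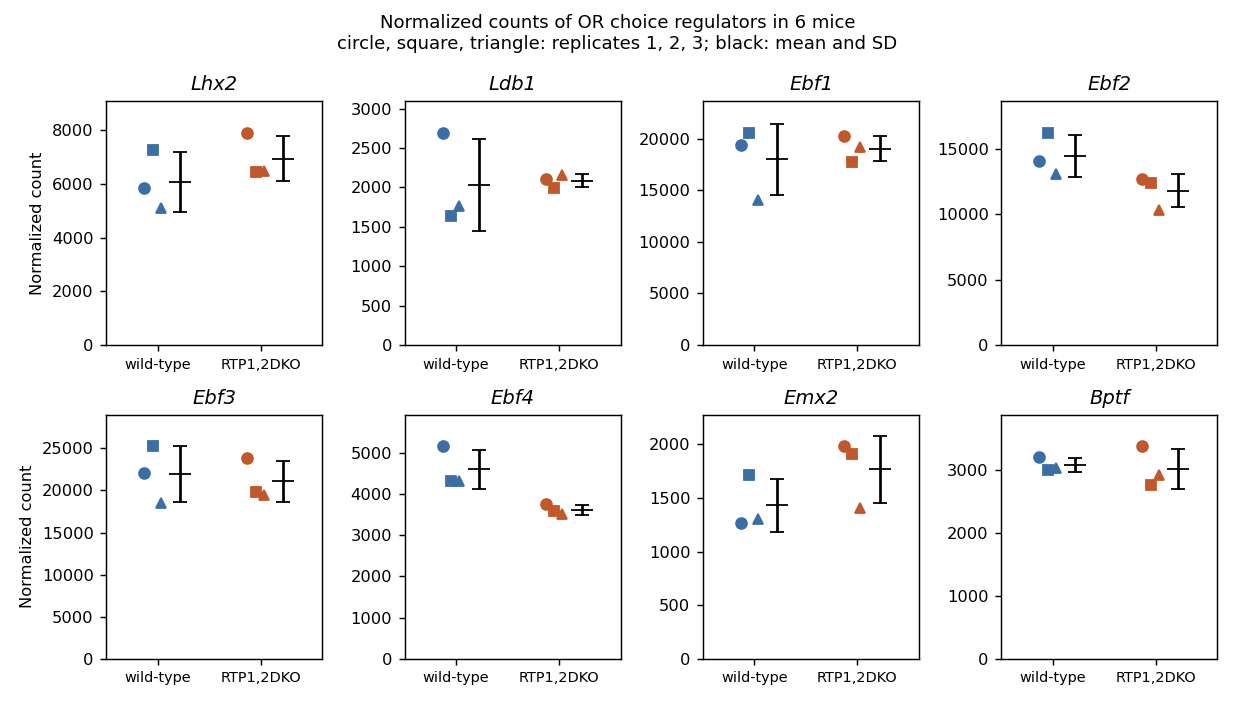
Normalized counts of the 8 regulators in each mouse (y axis from 0, one panel per gene), with blue for wild-type and orange for RTP1,2DKO and with the mean and SD of 3 mice in black. The groups overlap in 6 panels, and in Ebf2 and Ebf4 all RTP1,2DKO mice sit below all wild-type mice.

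LHX2 is the homeodomain partner in the pair that marks OR enhancers. Lhx2 (ENSMUSG00000000247, GRCm38 chr2:38339281-38369733, plus strand) held 5843, 7289 and 5117 normalized counts in the wild-type mice and 7920, 6439 and 6475 in the RTP1,2DKO mice. The highest wild-type mouse stood above the lower RTP1,2DKO mice, so the groups overlapped. The means were 6083 ± 1106 and 6945 ± 845 (SD, n = 3 each). The log2 fold change was 0.19 (SE 0.15, 95% interval -0.13 to 0.51, edgeR adjusted p = 0.727).

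LDB1 binds no DNA itself and dimerizes, which lets it join distant LHX2-bound sites. Ldb1 (ENSMUSG00000025223, chr19:46031570-46045214, minus strand) held 2695, 1632 and 1766 normalized counts in wild-type and 2108, 1991 and 2159 in RTP1,2DKO mice. All 3 RTP1,2DKO mice lay between wild-type mouse 1, the highest, and the other wild-type mice. The coefficient of variation was 28.5% in wild-type, the largest of the 8 genes, and 4.1% in RTP1,2DKO. Its log2 fold change was 0.04 (SE 0.17, 95% interval -0.33 to 0.40, edgeR adjusted p = 0.97). A stretch of 177 exonic bases of Ldb1 overlaps Pprc1 on the opposite strand, 3.84% of its exonic bases.

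The EBF proteins, also called OLF/EBF or COE factors, bind as dimers to a palindrome first described in promoters of olfactory genes, and OSNs are known for expressing all 4 family members. None of the 4 was called (0 of 4). Ebf1 and Ebf3, the more abundant members, differed between groups by less than their spread, and Ebf2 and Ebf4 were lower in every RTP1,2DKO mouse without passing the adjusted threshold.

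Ebf1 (ENSMUSG00000057098, chr11:44617317-45008091, plus strand) held 19388, 20599 and 14101 normalized counts in wild-type and 20229, 17749 and 19165 in RTP1,2DKO mice. The lowest and the highest values were both wild-type. The log2 fold change was 0.08 (SE 0.15, 95% interval -0.24 to 0.40, edgeR adjusted p = 0.916). Ebf3 (ENSMUSG00000010476, chr7:137193673-137314445, minus strand) held 22122, 25232 and 18543 normalized counts in wild-type and 23871, 19856 and 19516 in RTP1,2DKO mice. Here too the RTP1,2DKO mice fell inside the wild-type range. For Ebf3 the log2 fold change was -0.06 (SE 0.14, 95% interval -0.37 to 0.25, edgeR adjusted p = 0.94).

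Ebf2 (ENSMUSG00000022053, chr14:67233292-67430918, plus strand) held 14107, 16258 and 13121 normalized counts in wild-type and 12685, 12409 and 10365 in RTP1,2DKO mice. The lowest wild-type mouse stood just above the highest RTP1,2DKO mouse. The means were 14496 ± 1604 and 11820 ± 1267 (SD, n = 3 each), a ratio of 0.815. The log2 fold change was -0.29 (SE 0.13, 95% interval -0.58 to -0.01), with an unadjusted p of 0.0433 and an adjusted p of 0.399 in edgeR's quasi-likelihood test.

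Ebf4 (ENSMUSG00000053552, chr2:130295169-130370481, plus strand) held 5156, 4326 and 4312 normalized counts in wild-type and 3758, 3590 and 3514 in RTP1,2DKO mice. A gap separated the groups, and the RTP1,2DKO mice were close to each other. The means were 4598 ± 483 and 3621 ± 125 (SD, n = 3 each), a ratio of 0.787. For Ebf4 the log2 fold change was -0.34 (SE 0.12, 95% interval -0.60 to -0.09), with an unadjusted p of 0.0128, the smallest of the 8, and an edgeR adjusted p of 0.197. The intervals given here are for each gene alone and are not adjusted for the number of genes tested.

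Groups that did not overlap, with RTP1,2DKO lower, were found for 2 of the 8 regulators, beside 9.24% of all genes tested, and with RTP1,2DKO higher for 0 of 8, beside 7.17%. All 8 regulators had a mean of at least 1000 normalized counts. Among the 6212 genes that did, a comparison chosen after the values were seen, 11.1% were lower without overlap, 7.03% were higher without overlap and 3.59% were called in either direction. In those 6212 genes the middle of the distribution, from the 5th to the 95th percentile of log2 fold change, ran from -0.41 to 0.31. Ebf4 and Ebf2 lay inside it, with 6.2% and 8.08% of these genes below them.

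Emx2 and Bptf are the other regulators. Emx2 (ENSMUSG00000043969, chr19:59458372-59465357, plus strand) held 1269, 1712 and 1307 normalized counts in wild-type and 1979, 1913 and 1404 in RTP1,2DKO mice. RTP1,2DKO mice 1 and 2 were above every wild-type mouse, and mouse 3 was inside the wild-type range. Its log2 fold change was 0.30 (SE 0.16, 95% interval -0.04 to 0.65, edgeR adjusted p = 0.52), the highest of the 8, and 94.7% of the 6212 well expressed genes had a lower one. Emx2 shares 264 exonic bases, 8.79% of its exonic sequence, with the antisense gene Emx2os. How the counting used strand is not given in the sources used here, so reads in that stretch cannot be assigned to either gene with certainty. Emx2os held 434 to 559 normalized counts in wild-type and 501 to 550 in RTP1,2DKO mice.

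Bptf (ENSMUSG00000040481, chr11:107033081-107132127, minus strand) held 3213, 3011 and 3042 normalized counts in wild-type and 3378, 2772 and 2922 in RTP1,2DKO mice. The RTP1,2DKO mice held both the highest and the lowest value. The log2 fold change was -0.03 (SE 0.12, 95% interval -0.29 to 0.23, edgeR adjusted p = 0.965), and the coefficient of variation in wild-type was 3.5%, the smallest of the 8.

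The mice did not vary independently from gene to gene. Wild-type mouse 3 was the lowest of its group for 5 of the 8 regulators and the highest for 0, and RTP1,2DKO mouse 1 was the highest of its group for 7 of 8. The SD was larger in wild-type than in RTP1,2DKO for 6 of the 8 genes. The same mice were thus at the ends of the range for several genes, and the 8 regulators are not independent repeats of the comparison.

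Genes of the mature OSN had larger changes than the regulators. Omp, the classical marker of the mature OSN, had a log2 fold change of -0.90 (edgeR adjusted p = 0.00297), and 8 of 10 mature OSN markers fell, with a median of -1.14 and 0 rising. The largest of these falls was in Stoml3, a protein of the sensory cilia, at -2.00. The lowest bound of any interval among the 8 regulators was -0.60, and the intervals of 6 of the 10 mature OSN markers lay wholly below it. A halving, a log2 fold change of -1, was inside the interval of 0 of the 8 regulators, and no change was inside the interval of 6. The summed level of the 10 markers was 136650 to 139580 normalized counts in wild-type and 57589 to 69412 in RTP1,2DKO mice.

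**Figure D2:**
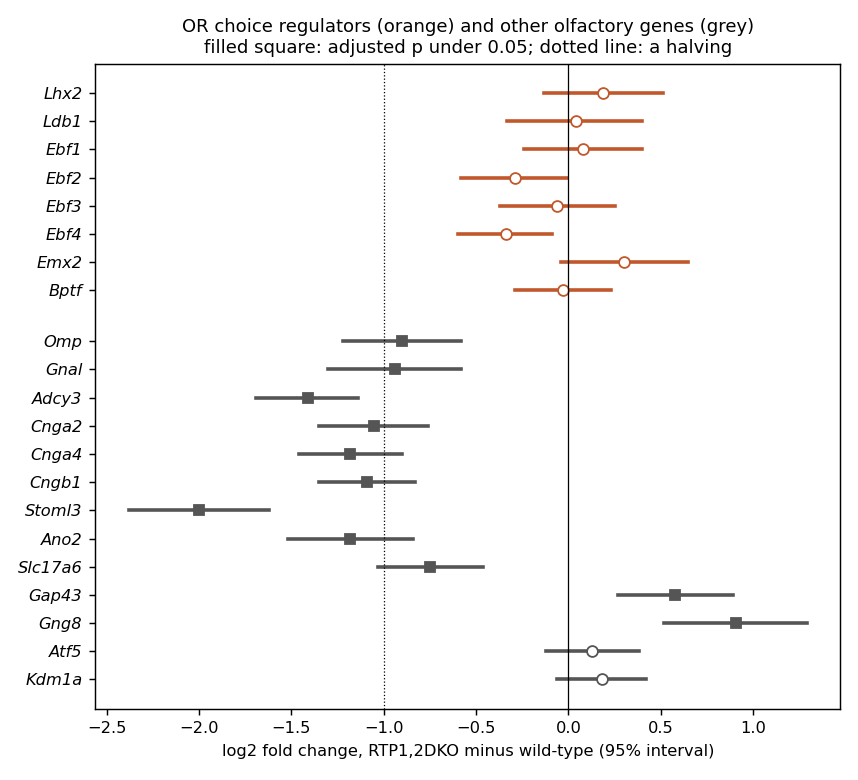
Log2 fold change (x axis, RTP1,2DKO minus wild-type) with the 95% interval for the 8 regulators in orange and for olfactory genes named in the text or drawn from the marker lists in grey. Filled squares passed an adjusted p of 0.05 in edgeR's quasi-likelihood test, and the dotted line marks a halving. The marker genes drawn are a selection. The mature OSN markers that did not pass, Gng13 (-0.76) and Kirrel2 (-1.19), are left out. Of the immature OSN markers only Gap43 and Gng8, which passed, are drawn. The intervals of all 8 regulators end to the right of the halving line, and the mature OSN genes from Omp to Slc17a6 lie at -0.75 or lower.

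Each regulator was then set against the neuronal markers of the same mouse, as log2 of its normalized count minus the mean log2 normalized count of the 10 mature OSN markers. That mean was 12.85 ± 0.12 in wild-type and 11.70 ± 0.07 in RTP1,2DKO (SD, n = 3 each). On this scale all 8 regulators were higher in every RTP1,2DKO mouse than in any wild-type mouse. Lhx2 went from -0.23, -0.15 and -0.51 in wild-type to 1.32, 0.90 and 0.93 in RTP1,2DKO mice, a difference of 1.35. The differences were 1.22 for Ldb1, 1.25 for Ebf1, 0.86 for Ebf2, 1.10 for Ebf3, 0.81 for Ebf4, 1.45 for Emx2 and 1.12 for Bptf. The exact permutation test gave p = 0.1 for each, two-sided, which is the smallest value 3 mice against 3 allow. The pattern was not particular to these genes, because 76.6% of all genes tested and 97.7% of the 6212 well expressed genes were higher without overlap on the same scale. Against Omp alone, Ebf2 overlapped between groups and the other 7 did not, beside 70.0% of all genes tested and 93.8% of the well expressed genes that were higher without overlap.

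Markers of the younger stages, at which several of the regulators are known to be transcribed too, had positive medians. Of 8 immature OSN markers, 2 rose and 0 fell, with a median log2 fold change of 0.33. The genes that rose were Gap43, a growth cone protein (0.58, edgeR adjusted p = 0.0418), and Gng8, a G protein subunit of immature OSNs (0.91, edgeR adjusted p = 0.0104). Their summed level was 30340 to 37907 normalized counts in wild-type and 41760 to 44854 in RTP1,2DKO mice. None of the 6 progenitor markers passed the test (0 of 6, median 0.50), though all 6 were higher in RTP1,2DKO without overlap, beside 7.17% of all genes tested. The summed levels were 5944 to 7179 in wild-type and 8434 to 10545 in RTP1,2DKO mice.

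Relative to the immature OSN list, a reference added after the values were seen, 6 of the 8 regulators were lower in RTP1,2DKO without overlap, beside 36.7% of all genes tested and 58.6% of well expressed genes. The differences in log2 were largest for Ebf4 (-0.72) and Ebf2 (-0.67), and were -0.43 for Ebf3, -0.41 for Bptf, -0.30 for Ldb1 and -0.28 for Ebf1. Lhx2 (-0.18) and Emx2 (-0.07) overlapped between groups. The direction of a regulator per neuron marker thus depended on which stage supplied the markers, and the part of the cell makeup in the result was not tested.

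Markers of the other cell types in the mucosa gave 0 calls in each list, with median log2 fold changes of -0.05 for sustentacular cells, 0.05 for horizontal basal cells, 0.06 for ensheathing glia, -0.31 for ciliated respiratory cells, 0.25 for B cells, 0.07 for mesenchyme, 0.06 for adipocytes and 0.14 for pericytes. In the ciliated cell list, 3 of 4 markers, Foxj1 (-0.22), Tekt1 (-0.39) and Ccdc39 (-0.42), were lower in RTP1,2DKO without overlap, beside 9.24% of all genes tested. The other, Dnah5 (-0.18), overlapped. The summed levels of this list were 9558 to 14307 normalized counts in wild-type and 9119 to 9648 in RTP1,2DKO mice. In the 7 other lists 0 markers were without overlap. EBF1 and EBF2 also serve outside neurons, EBF1 in B cells and mesenchyme and EBF2 in adipocytes and pericytes. The summed B cell markers held 269 to 616 normalized counts in wild-type and 384 to 708 in RTP1,2DKO mice. The adipocyte markers summed to 318 to 382 and 345 to 403, and the pericyte markers to 17687 to 20474 and 16841 to 18650. The mesenchyme markers were far higher, at 314190 to 344810 in wild-type and 294750 to 389350 in RTP1,2DKO mice. The groups overlapped in all of these sums, and the share of Ebf1 and Ebf2 transcripts that came from those cells was not tested.

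The levels of the 8 genes were compared with each other per transcript length, on the deposited TPM summed per gene. In wild-type mice Ebf3 was the highest at 164 ± 56.6 TPM (SD, n = 3), followed by Ebf1 at 133 ± 50.03, Lhx2 at 118 ± 43.4 and Ebf2 at 94.3 ± 28.9. Ebf4 held 69.3 ± 18.3, Ldb1 41.1 ± 16.6, Emx2 22.7 ± 7.85 and Bptf 9.02 ± 2.01 TPM. Between neighbours in that order the wild-type ranges overlapped in all pairs other than Emx2 and Bptf. Within a mouse the order was far steadier than those ranges: it was the same in all 6 mice except that Lhx2 (152 TPM) stood above Ebf1 (146 TPM) in RTP1,2DKO mouse 1. Wild-type mouse 3 was the lowest wild-type mouse for all 8 genes on the TPM scale. Bpifb9b took 11.7%, 4.81% and 13.7% of counts in wild-type mice 1, 2 and 3, where Ebf1 held 151, 171 and 76.0 TPM. In RTP1,2DKO mice 1, 2 and 3 the shares were 6.61%, 12.95% and 13.2%, and Ebf1 held 146, 102 and 99.9 TPM. A link between this share and the TPM values was not tested.

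The makeup of the EBF family was computed as the share of each gene in the summed TPM of all 4, which removes any scale factor common to a library. These shares and the ratios between family members were chosen after the values were seen. Ebf1 made up 29.6%, 29.4% and 26.1% of the family in wild-type and 31.7%, 31.3% and 34.4% in RTP1,2DKO mice, which was higher without overlap (28.4% ± 1.96 and 32.5% ± 1.68, exact permutation p = 0.1, n = 3 each). Ebf3 was the largest component in every mouse, at 34.5% to 36.8% in wild-type and 35.8% to 38.2% in RTP1,2DKO, and its groups overlapped. Ebf2 was between 19.3% and 21.9% in wild-type and between 16.7% and 19.6% in RTP1,2DKO. Ebf4 was between 12.9% and 16.8% in wild-type and between 12.3% and 13.3% in RTP1,2DKO. Both overlapped alone.

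Ebf2 and Ebf4 together made up 36.1% ± 2.45 of the family in wild-type and 30.9% ± 1.69 in RTP1,2DKO mice (SD, n = 3 each). These 2 genes were joined because both had been seen lower in every RTP1,2DKO mouse, so their sum describes that pattern again. Its exact permutation p of 0.1 is therefore no support for the pattern. Of the 6 ratios between pairs of family members, 3 did not overlap between groups. The log2 ratio of Ebf1 to Ebf2 went from 0.62, 0.50 and 0.26 in wild-type to 0.83, 0.67 and 1.05 in RTP1,2DKO mice. The mean log2 ratio of Ebf1 to Ebf4 was 0.89 in wild-type and 1.33 in RTP1,2DKO, and that of Ebf2 to Ebf3 was -0.78 and -1.02. Each of the 3 gave an exact permutation p of 0.1, the smallest possible, and 0.2 after adjustment over the 6 pairs. No ratio could have passed a threshold of 0.05 with 3 mice against 3, so that threshold decides nothing here. Each of these 3 ratios holds Ebf2 or Ebf4, and the share of Ebf1 also depends on those 2 genes. The ratios and the Ebf1 share thus describe the pattern already seen and are not separate support for it.

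**Figure D3:**
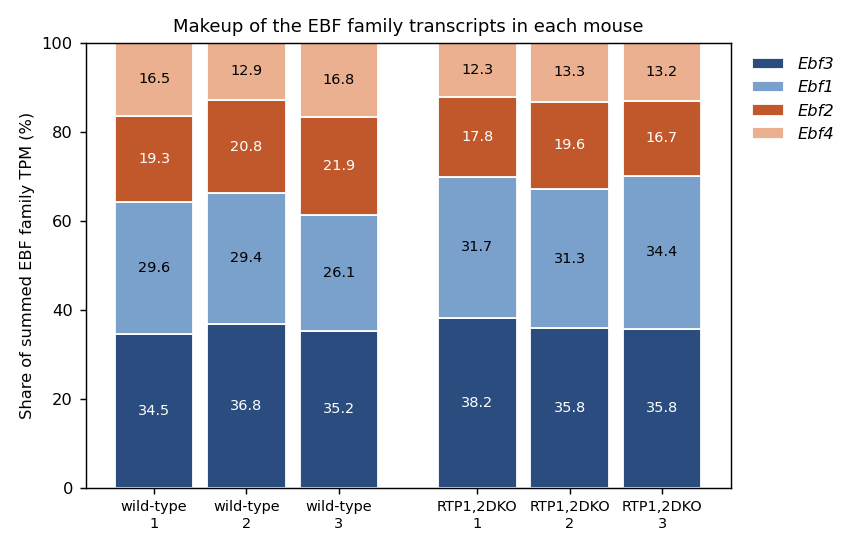
Share of each EBF gene in the summed TPM of the family (y axis, percent) in each of the 6 mice, with the printed value in each segment. The segments of Ebf1 are at 26.1% to 29.6% in wild-type and 31.3% to 34.4% in RTP1,2DKO mice, and the upper 2 segments together, Ebf2 and Ebf4, are thinner in RTP1,2DKO.

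The share of the main transcript overlapped between groups in all 5 regulators that have several. Ebf4, Emx2 and Bptf have 1 transcript in the files. The main transcript of Lhx2 (2234 bases) carried 79.0% ± 4.12 of the estimated counts in wild-type and 75.6% ± 8.42 in RTP1,2DKO (exact permutation p = 0.6, n = 3 each). The main transcript of Ldb1 (2110 bases) carried 73.8% ± 10.7 and 61.2% ± 8.44 (exact permutation p = 0.2, n = 3 each). Among minor transcripts, the one of Ebf1 with 5203 bases held 5.48% ± 0.908 of the gene in wild-type and 2.11% ± 1.91 in RTP1,2DKO, with 1223, 928 and 791 normalized counts against 2.20, 458 and 717. The minor transcript of Ebf3 with 5043 bases held 3.92% ± 0.912 and 1.64% ± 0.851. These 2 of the 8 minor transcripts of the regulators were lower in share without overlap (exact permutation p = 0.1 each, unadjusted), beside 4.6% of the 5066 minor transcripts of well expressed genes, and the other 6 overlapped. Another Ebf1 transcript has 5206 bases, and the Ebf2 transcripts have 5532 and 5527. A drop to near 0 in a single mouse, as in RTP1,2DKO mouse 1 for this Ebf1 transcript and in RTP1,2DKO mouse 3 for the minor Ebf2 transcript (2.46 normalized counts), is a value that kallisto assigned by estimate.

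Reads shared with other genes were a small part of the sequence. Of the 31-base words in each gene's GENCODE transcripts, between 92.2% (Emx2) and 100% (Ebf4) occurred in no other gene. For the most similar regulators, 99.4% of the words of Ebf1 and 96.9% of those of Ebf3 were found in no other gene. Ebf2 shares 424 exonic bases (6.12%) with Gm10860, and Ebf3 shares 355 (3.85%) with Gm45278. Both partners lie on the opposite strand and are not among the genes counted.

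The genes whose pattern over the 6 mice was most like that of Ebf4, the regulator with the smallest p, were taken from 13347 genes other than ORs with a mean of at least 100 normalized counts. They were Myo5b, Cln8 and Wdr35, at root mean square differences of 0.0272, 0.0287 and 0.0332 in centred log2 normalized count, beside a median of 0.259 over the genes compared. Their log2 fold changes were -0.38, -0.35 and -0.36, and the adjusted p-values in edgeR's test were 0.159, 0.226 and 0.174. Values near those of Ebf4 follow from the way these genes were picked and are not a separate result.

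Genes that work with the regulators were read from lists. Of 9 LDB1 partner and LIM-only genes, 0 passed the test in either direction (median log2 fold change 0.11). The most abundant were Rlim, a ubiquitin ligase that turns over LDB1 complexes (0.18), and Ssbp2, which stabilizes LDB1 (-0.11). Of the 10 other LIM homeodomain genes tested, 0 passed, and Isl1 was the most abundant (966 ± 118 and 1157 ± 278 normalized counts, SD, n = 3 each). Neither zinc finger partner of EBF factors passed the test, with log2 fold changes of 0.02 for Zfp423 and 0.06 for Zfp521. Of 6 genes of the BPTF remodeling complexes, 0 passed (median 0.09), with the ATPase gene Smarca5 at 0.05. Cohesin and CTCF, which shape chromatin loops, gave 0 of 8, a median of -0.03 and a range from -0.15 to 0.01, with Rad21 at 0.01 and Ctcf at -0.08.

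Of the genes of the OR feedback pathway, through which a first OR protein is known to end further choice, 1 of 5 fell and 0 rose. The one that fell was Adcy3, the olfactory adenylyl cyclase (-1.41, edgeR adjusted p = 4.79e-05), which is itself a mature OSN marker. Atf5, the translation-regulated effector of the pathway, was at 0.13, and the histone demethylase gene Kdm1a, which is needed to start OR transcription, was at 0.18 (edgeR adjusted p = 0.632). Kdm1a was higher in RTP1,2DKO without overlap, at 2878 to 3209 normalized counts in wild-type and 3283 to 3557 in RTP1,2DKO mice, beside 7.17% of all genes tested. Of 13 other transcription factors of the OSN lineage, 0 passed (median 0.13). Among them 3, with Sox11, were higher in RTP1,2DKO without overlap, beside the same 7.17% of all genes tested. The most abundant were Sox11 and Nfib, at 0.49 (edgeR adjusted p = 0.262) and 0.09.

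Genes that the regulators are known to act on include olfactory genes with EBF sites in their promoters and the ORs. Of 4 olfactory genes of that kind, 4 fell and 0 rose, beside 3.15% and 0.46% of all genes tested, and 3 of the 4 are also mature OSN markers. Omp was at -0.90, Gnal, the G protein alpha subunit of olfactory transduction, at -0.94 (edgeR adjusted p = 0.00527), Adcy3 at -1.41 and Cnga2, the cyclic nucleotide-gated channel subunit, at -1.05 (edgeR adjusted p = 0.000624). Cnga2 held 18089, 21238 and 16228 normalized counts in wild-type and 9237, 9535 and 7967 in RTP1,2DKO mice, a wide gap between the groups. Of 1078 intact ORs tested, 413 fell and 47 rose, with a median log2 fold change of -1.08.

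Promoter sequence was examined to see whether the letters these factors bind went with the change of an OR. Windows of 300 bases, from 250 before to 50 after a transcript start, came from RefSeq (GRCm38.p6). The motifs were TAATTA, the core that LIM homeodomain proteins bind, and CCCNNGGG, the EBF palindrome, on both strands. TCCCNNGGG was a longer form of the palindrome, and every match of it contains a match of CCCNNGGG. The upstream part is printed for 3 genes: an intact OR with both motifs, Olfr1357 (chr10:78618075-78618324, minus strand), the EBF target gene Cnga2 (chrX:71991599-71991848, plus strand) and the regulator Ebf3 (chr7:137314446-137314695, minus strand). They run 5′ to 3′ and end at the base before the transcript start, and the capitals mark the motif matches.
Olfr1357: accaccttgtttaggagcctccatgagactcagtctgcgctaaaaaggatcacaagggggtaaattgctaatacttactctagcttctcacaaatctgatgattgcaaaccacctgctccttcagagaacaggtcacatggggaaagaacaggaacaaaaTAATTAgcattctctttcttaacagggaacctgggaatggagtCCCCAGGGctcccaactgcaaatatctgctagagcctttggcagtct
Cnga2: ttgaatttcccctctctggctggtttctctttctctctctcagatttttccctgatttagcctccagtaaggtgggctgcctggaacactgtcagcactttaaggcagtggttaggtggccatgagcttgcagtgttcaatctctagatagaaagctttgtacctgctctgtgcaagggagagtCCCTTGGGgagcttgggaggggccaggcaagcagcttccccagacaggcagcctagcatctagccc
Ebf3: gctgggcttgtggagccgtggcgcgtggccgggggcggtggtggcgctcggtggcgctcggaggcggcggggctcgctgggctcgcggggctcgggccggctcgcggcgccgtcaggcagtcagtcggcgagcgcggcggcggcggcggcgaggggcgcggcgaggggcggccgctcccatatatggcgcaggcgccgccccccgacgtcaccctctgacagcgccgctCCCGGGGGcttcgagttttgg
Counted from the transcript start, with -1 as the base before it, TAATTA begins at -90 and CCCNNGGG at -47 in Olfr1357. CCCNNGGG begins at -66 in Cnga2 and at -21 in Ebf3. Of the other olfactory genes listed with EBF sites, Adcy3 had 0 matches of CCCNNGGG in its windows, and no window was found for Omp or Gnal. A match is a run of letters and not evidence of binding.

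Entries were found for 7 of the 8 regulators, in 11 windows. CCCNNGGG was in 3 of those 11, which belong to Ebf3, Lhx2 and Ldb1, and TAATTA was in 1, which belongs to Emx2. Over all 32851 windows, CCCNNGGG was in 13.7% and TAATTA in 5.29%. Among 923 windows of 919 intact ORs, TAATTA was in 172 (18.6%), CCCNNGGG in 28 (3.03%) and TCCCNNGGG in 24 (2.60%). Of these windows 73.0% started directly at an ATG, where the model holds no 5′ leader and the window is not the true promoter, against 5.83% of all windows. In the 249 OR windows that did not, TAATTA was in 18.5% and CCCNNGGG in 7.63%.

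Intact ORs with and without the homeodomain core in these windows had nearly the same median change. With TAATTA there were 171 ORs with a median log2 fold change of -1.06, of which 59 fell (34.5%) and 6 rose (3.51%). Without it there were 740 with a median of -1.05, of which 282 fell (38.1%) and 33 rose (4.46%). The upper quartile was -0.24 with the motif and 0.27 without. With CCCNNGGG there were 28 ORs with a median of -1.32, of which 11 fell and 0 rose, and the 883 without it had a median of -1.05. The differences between these classes were not tested, since ORs in the same mice are not replicates. The classes include the 73.0% of OR windows that started at an ATG and are not the true promoter. Similar medians thus cannot show whether a motif in the promoter goes with the change. Only 2 intact ORs held both motifs. Olfr1357, the more abundant of them, held 55.9, 85.9 and 82.7 normalized counts in wild-type and 87.5, 128 and 101 in RTP1,2DKO mice, at a log2 fold change of 0.50 (SE 0.28, edgeR adjusted p = 0.569).

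**Figure D4:**
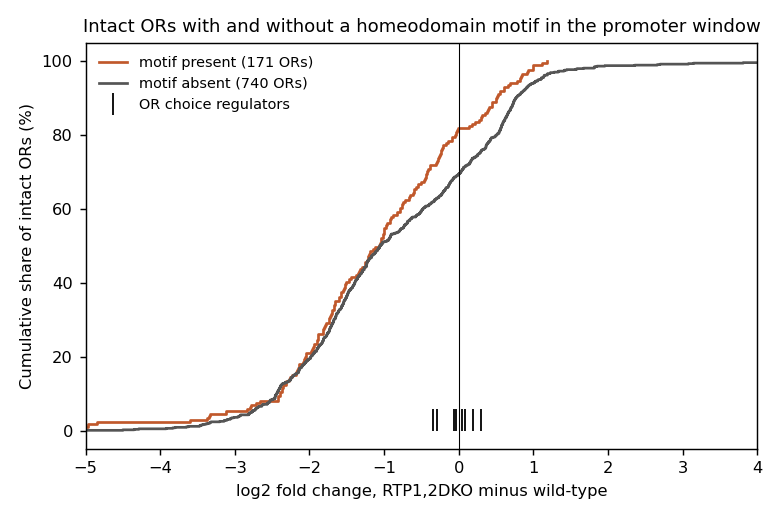
Cumulative share of intact ORs (y axis, percent) by log2 fold change (x axis, RTP1,2DKO minus wild-type), in orange for the 171 with the homeodomain core in the promoter window and in grey for the 740 without, with black ticks for the 8 regulators; ORs beyond the ends of the x axis are counted in the shares. The curves cross 50% at about the same place, -1.06 and -1.05, and all 8 ticks lie between -0.34 and 0.30. Of the intact OR windows, 73.0% started at an ATG and are not the true promoter.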

How the data were processed

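RNA of the whole olfactory mucosa was sequenced from 3 wild-type and 3 RTP1,2DKO mice. The authors ran kallisto against a mouse transcript set whose OR models they had lengthened, and the deposited values are estimated counts and TPM per transcript. The version of kallisto is not given in the sources used here, and the submitters' processing notes name mm10.

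Estimated counts were summed per gene and rounded to whole numbers. Size factors were the median of ratios (0.907 to 1.147). The edgeR 4.0.16 quasi-likelihood test was fitted over every gene that reached a count of 1 in any mouse, with Benjamini-Hochberg adjustment at 0.05, and DESeq2 1.42.0 was an alternative, in R 4.3.3. Intervals use 12.6 degrees of freedom. Ratios, shares and other values of a mouse were tested by exact two-sided permutation (scipy 1.17.1, Python 3.11.15), with 0.5 added to normalized counts before log2. TPM served for levels and shares only. Scripts were tested on simulated data.

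Members and gene lists were chosen with earlier results of these data known. Named genes are the 8 members, Rtp1 and Rtp2, list genes past the threshold, the most abundant genes of lists with none, and the 3 genes most like the member with the smallest p. The other genes named, Bpifb9b, Stoml3, Emx2os, Pprc1, the ciliated cell markers, Gng13, Kirrel2, Olfr1357, Atf5 and Kdm1a, were chosen after their values were seen. Gm10860 and Gm45278 were named for their exon overlap. Positions are from GENCODE M21 (GRCm38) and promoter windows from RefSeq (GRCm38.p6). The labels do not say that the mice came from separate litters, so p-values measure the spread between these mice.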

Additional observations from a re-analysis of the deposited data

How the results depend on the processing

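The number of regulators called was 0 under TMM size factors, edgeR's low-count filter, DESeq2, the replicate block and in the 6 fits without a mouse. Over these 10 alternatives the adjusted p of Ebf4 ran from 0.0883 (DESeq2) to 0.499 and that of Ebf2 from 0.196 to 0.821. With a mouse left out, the log2 fold change of Ebf4 ran from -0.39 to -0.25, of Ebf2 from -0.36 to -0.20, of Emx2 from 0.21 to 0.45 and of Lhx2 from 0.08 to 0.34. It changed sign for 4 genes that were near 0, with ranges of -0.10 to 0.30 for Ldb1, -0.07 to 0.19 for Ebf1, -0.17 to 0.05 for Ebf3 and -0.12 to 0.03 for Bptf. The sign changed without wild-type mouse 2 for Ldb1 (-0.10) and Ebf3 (0.05), without wild-type mouse 3 for Ldb1 (-0.05) and Ebf1 (-0.07), and without RTP1,2DKO mouse 2 for Bptf (0.03), and the cause was not tested.

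Over all genes 102 were called higher and 697 lower. The count called higher was 217 with DESeq2 and 196 with the replicate block, and between 52 and 132 with a mouse left out (52 without RTP1,2DKO replicate 1, 59 without replicate 2 and 65 without replicate 3). The count of all calls was 1112 with DESeq2 and 1012 with the block. Deviations from the group means, over 18133 genes, correlated at 0.131, 0.172 and 0.094 between mice of the same number. Between mice of different numbers the correlations ran from -0.216 to 0.098. RTP1,2DKO mouse 3 correlated slightly better with wild-type mouse 1 (0.098) than with its own number. On that ground the main test and its intervals did not take the numbers as pairs, but these correlations do not exclude pairing by number. With the replicate block the edgeR adjusted p was 0.196 for Ebf2 and 0.12 for Ebf4. The number of regulators higher per mature OSN marker was 8, was 7 against Omp alone, was 8 with each mouse left out, and was 0 against the immature OSN list, whose own mean log2 level was 0.38 higher in RTP1,2DKO. That reference was added after the data were seen.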
